A study of Mus musculus with 12 samples.

Results

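The RANKL axis and osteoclast genes are 10 genes of the table, chosen by gene symbol and not by their values, of 36186 gene rows in all. Of these, 3 encode signals that recruit or restrain osteoclasts (Tnfsf11, Tnfrsf11b and Csf1) and 7 are expressed by osteoclasts or their precursors (Tnfrsf11a, Nfatc1, Acp5, Dcstamp, Ocstamp, Calcr and Oscar). The data are 12 RNA-Seq libraries of mouse forelimb zeugopod (the segment of the radius and ulna) at E15.5, on a mixed 129/CD-1 background. WT resting, WT proliferative and WT hypertrophic chondrocytes and *aadd* chondrocytes each had 3 libraries. The *aadd* mice were homozygous for frameshift mutations in the first exons of Hoxa9, Hoxa10, Hoxa11, Hoxd9, Hoxd10 and Hoxd11, and WT mice carried none of them. The mutations are germline, so every cell of the *aadd* limb carried them. WT compartments were cut separately by laser capture microdissection (LCM), whereas the *aadd* chondrocytes, which formed no distinct compartments, were taken as one population. The captures included some perichondrium, the tissue that sheathes the cartilage. In the GEO labels the hypertrophic samples are named hyperproliferative, and *aadd* carries the compartment resting; hypertrophic is used here.

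Osteoclasts are large multinucleate cells of the macrophage lineage that resorb mineralized cartilage and bone. Their precursors need M-CSF, the product of Csf1, and RANKL, the product of Tnfsf11, which binds the receptor RANK (Tnfrsf11a) and leads to activation of the transcription factor NFATc1. Osteoprotegerin (OPG, from Tnfrsf11b) is a soluble decoy that binds RANKL and keeps it from RANK. In the growth plate, hypertrophic chondrocytes and the cells around them are known sources of RANKL, and osteoclasts arrive where blood vessels enter the hypertrophic cartilage.

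Values are NRPKM, RPKM values normalized further between libraries by the authors. RPKM values are per length of transcript, so that levels may be compared between genes on that basis. The depth implied by the values was 1890000 to 3240000 reads per library, and 1 read on a transcript of 1 kb was worth 0.309 to 0.53 NRPKM. The tissue check was met in all libraries: Col2a1, the main cartilage collagen, was at 245 to 1530 NRPKM and Acan, the aggrecan core protein, at 60.0 to 407 NRPKM, with the lowest values of both in hypertrophic replicates 2 and 3. Hypertrophic replicate 1 stood apart from replicates 2 and 3. It had 263.8 NRPKM of Col10a1, the hypertrophic collagen, against 166.3 and 220.6, and 56.3 NRPKM of Ihh, made by chondrocytes entering hypertrophy, against 9.54 and 15.3. It had 3.05 NRPKM of the late hypertrophic and osteoblast collagenase Mmp13 against 734.6 and 661.2. Of 1869 sensory receptor and keratin-associated genes, which cartilage is not known to use, 617 were above 0 in hypertrophic replicate 1 against 216 and 146 in replicates 2 and 3. The part of these differences in the results was not tested.

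The genes differ in how they sit in the genome (build mm10). Tnfsf11 is on chromosome 14 (78277446 to 78308043, minus strand), Tnfrsf11b on chromosome 15 (54250619 to 54278484, minus) and Csf1 on chromosome 3 (107741048 to 107760469, minus). Tnfrsf11a is on chromosome 1 (105780723 to 105847981, plus), Acp5 on chromosome 9 (22126727 to 22135746, minus) and Dcstamp on chromosome 15 (39745932 to 39760934, plus). Ocstamp is on chromosome 2 (165395450 to 165400394, minus), Calcr on chromosome 6 (3685720 to 3764713, minus) and Oscar on chromosome 7 (3609815 to 3616157, minus). The row of Calcr overlaps those of the microRNA genes Mir489 and Mir653, and no other row of the 10 overlaps another gene's row.

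Promoter sequences are shown for 2 signals and 2 osteoclast genes that were high in the same hypertrophic libraries, as the stretch of 250 bases before the start site in RefSeq (GRCm38.p6). Capitals mark matches, on either strand, to the letters GGAAA (an NFAT core) or its complement, GAGGAA (PU.1), TGANTCA (AP-1), TCATGTG (MITF) and TGTGGT (Runx). GGAAA and GAGGAA share GGAA and can overlap. Tnfsf11 is at chr14:78308044-78308293 and Csf1 at chr3:107760470-107760719. Acp5 has 3 start sites in RefSeq; the stretch at the innermost, chr9:22130599-22130848, is shown, a choice made after the matches were counted. The bases after that start match a GENCODE transcript of Acp5, and those after the outer starts do not. Oscar is at chr7:3616158-3616407. All 4 are on the minus strand and are written 5′ to 3′ along the gene.
Tnfsf11: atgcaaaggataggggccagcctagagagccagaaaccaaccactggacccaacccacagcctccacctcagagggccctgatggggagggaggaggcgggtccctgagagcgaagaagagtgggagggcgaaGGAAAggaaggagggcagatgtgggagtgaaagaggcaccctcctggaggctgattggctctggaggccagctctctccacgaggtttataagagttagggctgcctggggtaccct
Csf1: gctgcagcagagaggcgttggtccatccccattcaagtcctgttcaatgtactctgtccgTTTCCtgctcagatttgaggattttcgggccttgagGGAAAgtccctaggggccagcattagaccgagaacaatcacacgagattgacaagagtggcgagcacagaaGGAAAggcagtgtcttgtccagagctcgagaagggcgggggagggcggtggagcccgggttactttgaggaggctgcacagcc
Acp5: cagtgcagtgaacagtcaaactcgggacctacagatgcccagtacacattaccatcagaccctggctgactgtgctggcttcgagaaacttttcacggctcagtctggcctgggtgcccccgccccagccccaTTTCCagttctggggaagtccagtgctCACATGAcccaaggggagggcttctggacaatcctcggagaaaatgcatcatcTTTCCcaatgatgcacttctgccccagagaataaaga
Oscar: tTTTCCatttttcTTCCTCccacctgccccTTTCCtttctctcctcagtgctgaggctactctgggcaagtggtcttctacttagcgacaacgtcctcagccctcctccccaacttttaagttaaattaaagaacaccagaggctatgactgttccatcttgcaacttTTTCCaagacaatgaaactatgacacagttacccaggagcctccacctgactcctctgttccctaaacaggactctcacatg
Over the 300-base promoter, which runs 50 bases past the start, Tnfsf11 held 1 match to GGAAA and Csf1 held 3. The innermost Acp5 promoter held 2 and a match to TCATGTG, and the outer 2 Acp5 promoters held 1 GGAAA each. Oscar held 4 matches to GGAAA and 2 to GAGGAA, with 1 of each in the part past the start that is not shown. Of 2 Calcr promoters, 1 held a GGAAA, and the promoter of Tnfrsf11a held none of the 5 motifs. Among 32851 promoters of the same length, 61.3% held GGAAA, 28.3% GAGGAA, 16.8% TGTGGT, 7.81% TGANTCA and 3.77% TCATGTG, so that a GGAAA match is common. Promoters of 6 of the 10 genes were used here, and those of Tnfrsf11b, Nfatc1, Dcstamp and Ocstamp were not.

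**Figure D1:**
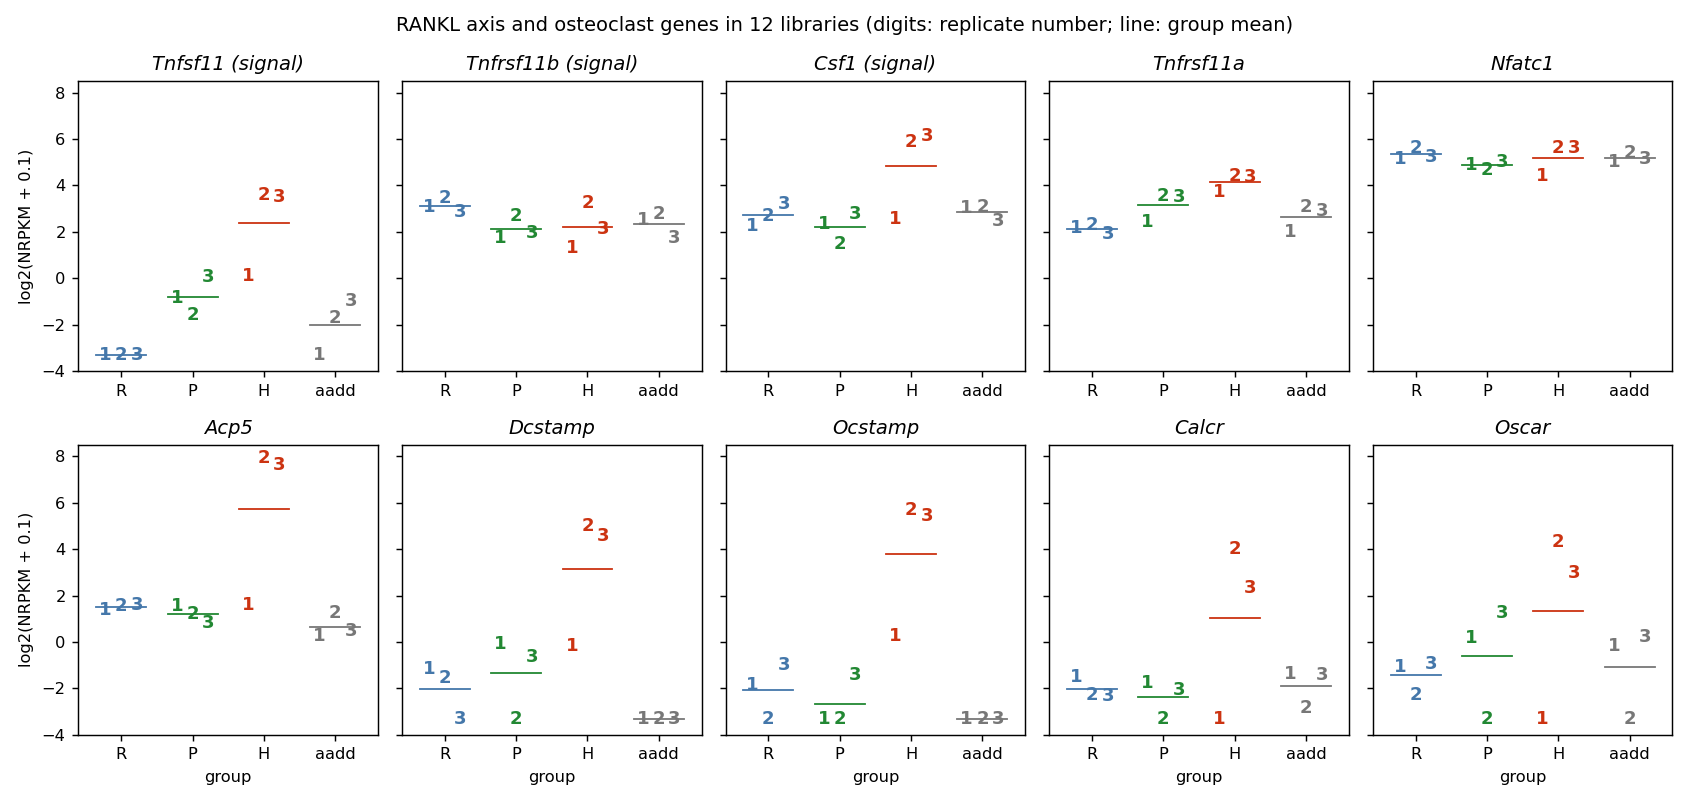
Each panel gives 1 gene, with the group on the x axis (R resting, P proliferative, H hypertrophic, aadd) and log2(NRPKM + 0.1) on the y axis; each digit is the library of that replicate number and the line is the mean of 3 libraries. Hypertrophic replicates 2 and 3 lie above the other 10 libraries for 8 of the 10 genes, all but Tnfrsf11b and Nfatc1, and hypertrophic replicate 1 lies with the other groups for Csf1, Acp5, Dcstamp, Calcr and Oscar.

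Tnfsf11 (RANKL) was at 0 NRPKM in all 3 WT resting libraries. It was at 0.451, 0.234 and 0.948 NRPKM in WT proliferative replicates 1, 2 and 3 and at 0.958, 11.9 and 11.3 NRPKM in WT hypertrophic replicates 1, 2 and 3. It was at 0, 0.203 and 0.413 NRPKM in *aadd*. The order of the group means was thus hypertrophic, proliferative, *aadd* and resting, but the proliferative values rest on at most 4 reads and the *aadd* values on at most 2.6 reads. Hypertrophic replicate 1, with 5 reads, was 1 read above the highest proliferative library. In bulk samples, fewer cells of a type and less RNA per cell cannot be told apart.

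Tnfrsf11b (OPG) was highest in resting cartilage by its group mean. Its values were 8.31, 10.8 and 7.22 NRPKM in WT resting, 3.27, 6.31 and 3.76 in WT proliferative, 2.36, 9.29 and 4.26 in WT hypertrophic and 5.61, 6.71 and 3.21 in *aadd*. Every resting library was above every proliferative library and every *aadd* library, whereas the hypertrophic libraries spanned both, with replicate 2 within the resting range and replicate 1 the lowest of the 12. Of 10936 genes with 5 NRPKM or more in 3 or more libraries, 2628 did not overlap between proliferative and resting. Between *aadd* and resting 1687 did not.

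Csf1 (M-CSF) was at 4.74, 6.42 and 9.01 NRPKM in WT resting, 4.98, 2.69 and 6.79 in WT proliferative and 7.95, 8.25 and 5.41 in *aadd*. In WT hypertrophic replicates 2 and 3 it reached 59.4 and 70.3 NRPKM, while replicate 1 was at 5.74 NRPKM. The lower of replicates 2 and 3 was 6.59 times the highest of the other 10 libraries, and 5 of the 9 libraries of the other groups were above replicate 1.

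Among the osteoclast genes, Tnfrsf11a (RANK) was detected in every library. It was at 4.45, 4.88 and 3.68 NRPKM in WT resting, 5.29, 11.6 and 11.3 in WT proliferative, 13.1, 21.0 and 20.6 in WT hypertrophic and 3.89, 8.36 and 7.34 in *aadd*. The 3 WT groups did not overlap, and hypertrophic replicate 1 was above all 9 libraries of the other groups. Groups also did not overlap for many of the 10936 genes with 5 NRPKM or more in 3 or more libraries. These were 2628 between proliferative and resting, 2642 between hypertrophic and proliferative and 3495 between hypertrophic and resting. The *aadd* libraries overlapped both the resting and the proliferative ones.

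Nfatc1, on chromosome 18 (80606205 to 80713071, minus strand), encodes the transcription factor that RANK signalling activates, and was well detected in every library. Its values were 35.6, 49.2 and 37.8 NRPKM in WT resting, 29.7, 25.6 and 32.5 in WT proliferative, 20.9, 49.0 and 48.5 in WT hypertrophic and 32.1, 41.9 and 35.7 in *aadd*. Hypertrophic replicates 2 and 3 were within the resting range, and replicate 1 was the lowest of the 12 libraries.

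The other 5 osteoclast genes were at 2.92 NRPKM or less outside hypertrophic replicates 2 and 3. Acp5, the tartrate-resistant acid phosphatase (TRAP) used to stain osteoclasts, was at 246.2 and 199.96 NRPKM in replicates 2 and 3 and at 2.92 in replicate 1. It was at 2.51, 2.83 and 2.90 NRPKM in WT resting, 2.84, 2.22 and 1.64 in WT proliferative and 1.11, 2.25 and 1.30 in *aadd*. Replicate 1 was thus level with the resting libraries, and the lower of the other two was 68.5 times the highest of the remaining 10.

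Dcstamp and Ocstamp encode membrane proteins needed for osteoclast precursors to fuse. Dcstamp was at 31.6 and 23.9 NRPKM in hypertrophic replicates 2 and 3 and 0.773 in replicate 1, against 0.340, 0.238 and 0 in WT resting, 0.855, 0 and 0.531 in WT proliferative and 0 in all 3 *aadd* libraries. Ocstamp was at 51.2 and 42.6 NRPKM in hypertrophic replicates 2 and 3 and 1.09 in replicate 1, against 0.173, 0 and 0.400 in WT resting, 0, 0 and 0.271 in WT proliferative and 0 in all 3 *aadd* libraries. With 9.3 reads, Ocstamp in hypertrophic replicate 1 was above the other 9 libraries, whereas Dcstamp there was within the proliferative range.

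Calcr encodes the calcitonin receptor and Oscar an immune-type receptor that gives a co-stimulatory signal to osteoclast precursors. Calcr was at 16.2 and 4.97 NRPKM in hypertrophic replicates 2 and 3 and at 0 in replicate 1, with 0.252, 0.108 and 0.101 in WT resting, 0.198, 0 and 0.137 in WT proliferative and 0.279, 0.0400 and 0.271 in *aadd*. Oscar was at 19.7 and 7.83 NRPKM in hypertrophic replicates 2 and 3 and at 0 in replicate 1, with 0.367, 0.104 and 0.424 in WT resting, 1.03, 0 and 2.30 in WT proliferative and 0.779, 0 and 1.07 in *aadd*. Both were lower in replicate 3 than in replicate 2 by a larger factor than Acp5, Dcstamp and Ocstamp were.

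The hypertrophic libraries differed among themselves for most of the 10 genes, by different factors. The mean of replicates 2 and 3 over replicate 1 was 12.1 for Tnfsf11 and 11.3 for Csf1, against 76.4 for Acp5, 42.8 for Ocstamp and 35.9 for Dcstamp, and Calcr and Oscar were at 0 in replicate 1. The ratio was 2.88 for Tnfrsf11b, 2.33 for Nfatc1 and 1.59 for Tnfrsf11a. Of the 3 signals, 2 (Tnfsf11 and Csf1) were above the other 10 libraries in both replicates 2 and 3, as were 6 of the 7 osteoclast genes. Of 23070 genes above 0 in any library, 11.6% had this pattern. Replicate 1 was singled out with its values known, so these ratios carry no test.

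The ratio of Tnfsf11 to Tnfrsf11b sets the ligand against its decoy within each library. It was 0 in the 3 WT resting libraries, 0.138, 0.0371 and 0.252 in WT proliferative and 0.407, 1.28 and 2.64 in WT hypertrophic, with 0, 0.0303 and 0.129 in *aadd*. Replicate 1 of the hypertrophic group was again the lowest of its group, but above all 9 libraries of the other groups. On the log2 scale, with 0.1 NRPKM added to each gene, the mean ratio was 0.17 ± 1.31 (SD, n = 3) in WT hypertrophic, -2.92 ± 1.22 in WT proliferative, -6.45 ± 0.29 in WT resting and -4.34 ± 1.58 in *aadd*. The differences were 3.53 between proliferative and resting, 3.09 between hypertrophic and proliferative, 6.62 between hypertrophic and resting and 2.11 between *aadd* and resting. The groups of each comparison did not overlap, and *aadd* replicate 1, at 0 for Tnfsf11, lay above resting through its lower Tnfrsf11b. The two-sided exact permutation test gave P = 0.1 for each, the smallest that 3 against 3 libraries allow. The differences from resting depend on the added value, since Tnfsf11 was at 0 there.

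**Figure D2:**
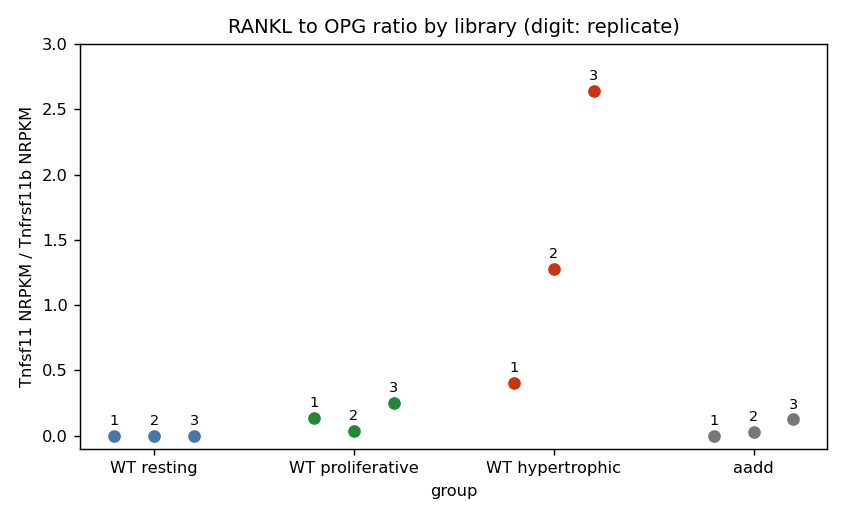
The x axis gives the group and the y axis the ratio of Tnfsf11 to Tnfrsf11b NRPKM on a linear scale; each point is a library, with its replicate number. Resting libraries lie at 0, proliferative ones at 0.0371 to 0.252, hypertrophic ones at 0.407 to 2.64 and *aadd* ones at 0 to 0.129.

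The comparisons across all genes ask which genes change as cartilage matures and in the mutants. A gene entered if 3 or more of the 12 libraries held 5 NRPKM or more, and was called with an unadjusted P up to 0.05 and a fold of at least 2 between WT compartments or 1.5 between *aadd* and WT resting, in limma on log2(NRPKM + 0.1). Of the 10 genes, 4 entered (Tnfrsf11b, Csf1, Tnfrsf11a and Nfatc1). The other 6 reached 5 NRPKM in at most 2 libraries and were tested without the filter, in a fit over all genes above 0. Adjusted P-values are Benjamini-Hochberg values over all genes of the fit.

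Between WT proliferative and WT resting, RANK rose and OPG fell by these limits, and neither passed adjustment. Tnfrsf11a was higher by 1.02 ± 0.33 (log2, SE; adjusted P = 0.2202 in limma) and Tnfrsf11b lower by a log2 change of -1.003 ± 0.29 (adjusted P = 0.192 in limma), both with no overlap between the groups. Thus 2 of the 4 genes past the filter were called, against 5.53% of all genes. The groups did not overlap for 2628 of the 10936 genes past the filter. Csf1 was at -0.52 and Nfatc1 at -0.47 on the log2 scale, below the fold limit. Without the filter 3 of the 10 were called, against 7.26% of all genes, Tnfsf11 being the additional one at 2.53 ± 0.44 (adjusted P = 0.147 in limma). With a pseudocount of 1 in place of 0.1 this change was 0.60, below the fold limit, and none of the 10 was called. With each library left out Tnfsf11 was still called. The receptor and keratin-associated genes above 0 numbered 403, 409 and 200 in resting replicates 1, 2 and 3, 581, 612 and 423 in proliferative and 176, 606 and 591 in *aadd*, where Tnfsf11 was at 0 in replicate 1; their part in these low values was not tested. Acp5, Dcstamp, Ocstamp, Calcr and Oscar were not called, and Oscar was when proliferative replicate 2 was left out. With the replicate number as a block, both stayed past the limits in the filtered fit, and without the filter Tnfrsf11a was lost. In the filtered fit, the call of Tnfrsf11a was lost without resting replicate 3, proliferative replicate 2 or proliferative replicate 3, and that of Tnfrsf11b without resting replicate 2, proliferative replicate 1 or proliferative replicate 3.

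Between WT hypertrophic and WT proliferative, Csf1 was higher by 2.66 ± 0.99 (adjusted P = 0.234 in limma) and Tnfrsf11a by 1.002 ± 0.37 (adjusted P = 0.234 in limma), so that 2 of the 4 genes were called higher, against 5.32% of all genes. Hypertrophic and proliferative libraries overlapped for Csf1, because of replicate 1. Without the filter 5 of the 10 were called higher, against 4.97% of all genes: Ocstamp at 6.48 ± 1.59, Acp5 at 4.54 ± 1.76, Dcstamp at 4.48 ± 1.65, Tnfsf11 at 3.18 ± 1.07 and Csf1. Their adjusted P-values were 0.281 to 0.422 in limma. Tnfrsf11a, at the same fold, was not called in that fit, and Calcr at 3.40 ± 1.92 and Oscar at 1.95 ± 2.30 were not called. In limma 0 genes past the filter passed adjustment at 0.05, and 2115 had P under 0.05 before it. In the filtered fit, leaving out proliferative replicate 1 or either of hypertrophic replicates 2 and 3 lost both calls, and leaving out proliferative replicate 2 or 3 lost that of Csf1. Without the filter, Ocstamp alone of the 10 was still called when any of proliferative replicates 1 and 2 and hypertrophic replicates 2 and 3 was left out, and Ocstamp and Tnfsf11 when proliferative replicate 3 was.

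Leaving out hypertrophic replicate 1 raised the number of calls in the fit without the filter, and leaving out any other of the 6 libraries lowered it. Without replicate 1, 8 of the 10 genes were called higher than proliferative, all but Tnfrsf11b and Nfatc1, against 8.96% of all genes. Of these, 5 (Acp5, Calcr, Csf1, Ocstamp and Tnfsf11) had an adjusted P under 0.05 in limma, against 1.91% of all genes. Acp5 was higher by 6.61 ± 0.33, Ocstamp by 8.24 ± 0.70, Calcr by 5.57 ± 0.75, Tnfsf11 by 4.34 ± 0.55 and Csf1 by 3.81 ± 0.46. Tnfrsf11b was at 0.55 ± 0.50 and Nfatc1 at 0.74 ± 0.24 on the same scale, both below the fold limit. In the filtered fit without replicate 1, Csf1 and Nfatc1 were higher with an adjusted P under 0.05 in limma. So were 956 of all 10936 genes of that fit. Both fits compare 2 libraries with 3, and the library left out was chosen after its values were seen.

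**Figure D3:**
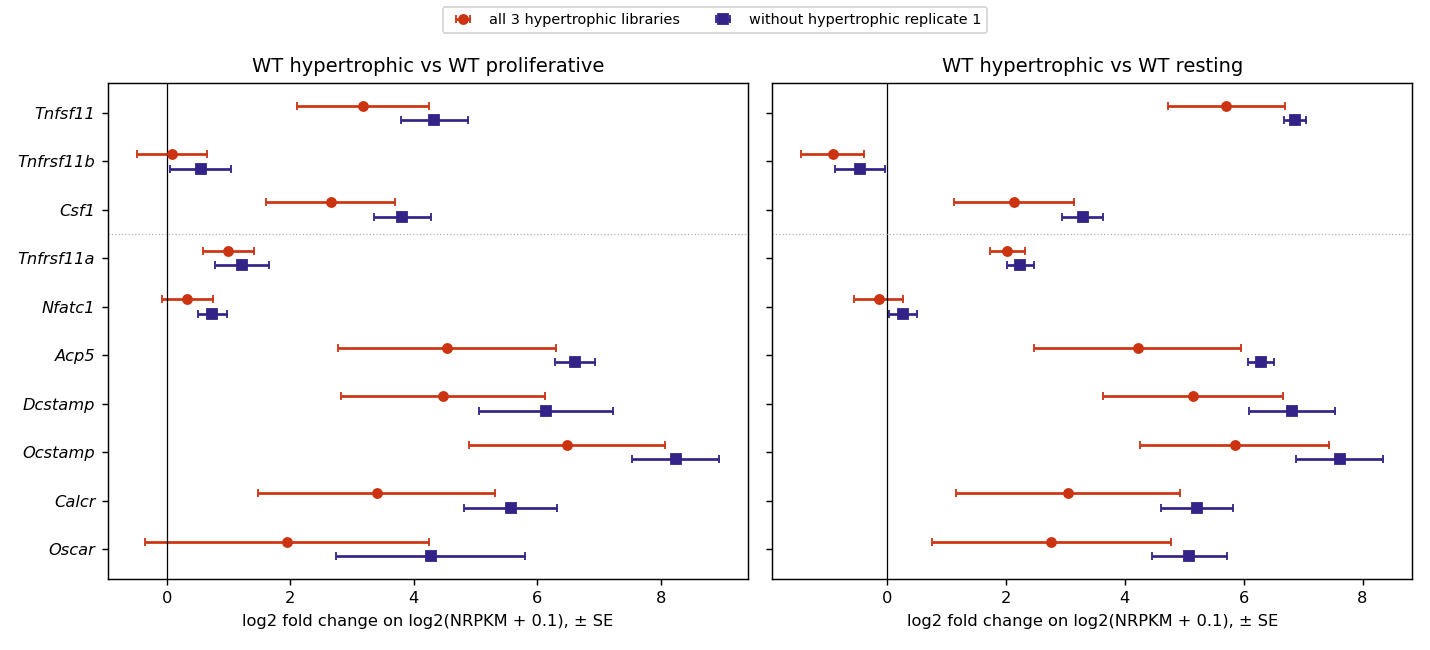
The x axes give the log2 fold change, on log2(NRPKM + 0.1) with SE bars from limma without the filter, of WT hypertrophic against WT proliferative (left) and WT resting (right); circles use all 3 hypertrophic libraries and squares leave out replicate 1, and the dotted line parts the 3 signals (top) from the 7 osteoclast genes. For Acp5 against proliferative the change is 4.54 ± 1.76 with replicate 1 and 6.61 ± 0.33 without, and for Tnfrsf11a 1.002 ± 0.42 and 1.22 ± 0.44.

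Between WT hypertrophic and WT resting, Tnfrsf11a was higher by 2.02 ± 0.25 with an adjusted P of 0.0102 in limma, and in this comparison it was called under each of its 14 alternatives (adjusted P = 0.00161 to 0.0531 in limma). It was the single gene of the 4 called, against 5.84% of all genes called higher. Csf1 was at 2.14 ± 0.96 with an adjusted P of 0.218 in limma, and it was called under 4 of its 14 alternatives, among them leaving out hypertrophic replicate 1 (3.29 ± 0.30, adjusted P = 0.00217 in limma). Without the filter 4 of the 10 were called higher, against 6.76% of all genes: Tnfsf11 at 5.71 ± 0.99, Ocstamp at 5.85 ± 1.60, Dcstamp at 5.15 ± 1.51 and Tnfrsf11a. Their adjusted P-values in limma were 0.0682 for Tnfsf11, 0.165 for Ocstamp, 0.186 for Dcstamp and 0.0450 for Tnfrsf11a. Dcstamp was not called without resting replicate 3 or without hypertrophic replicate 3. Since Tnfsf11 was at 0 in resting, its fold depends on the added value. Against 3 reads per library, at most 0.559 NRPKM in resting, its mean of 8.03 NRPKM in hypertrophic was at least 14.4-fold higher. That bound holds for the mean alone, as hypertrophic replicate 1 was at 0.958 NRPKM, with 5 reads. Without hypertrophic replicate 1, 8 of the 10 had an adjusted P under 0.05 in limma and were higher, against 5.1% of all genes, and again these were all but Tnfrsf11b and Nfatc1. That library was left out after its values were seen, and the fit compares 2 libraries with 3. With all 3 hypertrophic libraries and no filter, Tnfrsf11a alone of the 10 had an adjusted P under 0.05 in limma. None of the 10 did in that fit with the replicate block. Nor did any without any resting library or hypertrophic replicate 2 or 3. With all 12 libraries in 1 fit and no filter, Ocstamp, Tnfrsf11a and Tnfsf11 did.

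Between *aadd* and WT resting, Tnfrsf11b was lower by a log2 change of -0.79 ± 0.30 (adjusted P = 0.471 in limma), with no overlap between the groups. It was the single gene called of the 4, against 6.56% of all genes. The groups did not overlap for 1687 of the 10936 genes past the filter. Csf1 was at 0.12 ± 0.28, Tnfrsf11a at 0.52 ± 0.30 and Nfatc1 at -0.16 ± 0.20 on the log2 scale. Without the filter 1 of the 10 was called, against 5.82% of all genes. It was Acp5 at -0.84 ± 0.31 (adjusted P = 0.746 in limma), a change between 4.5 to 7.2 reads in *aadd* and 9.8 to 10.7 in resting, and Tnfrsf11b was not. The calls for Tnfrsf11b and Acp5 were each lost when all 12 libraries shared 1 fit, that of Acp5 also with a pseudocount of 1, and that of Tnfrsf11b also without resting replicate 1 or 2 or *aadd* replicate 1 or 3. Of the libraries left out in turn, *aadd* replicate 2 alone left Acp5 called. Tnfrsf11a was called higher when *aadd* replicate 1 was left out, with and without the filter, as was Tnfsf11 without the filter, and Oscar was called higher without *aadd* replicate 2. Dcstamp and Ocstamp, at 0 in *aadd*, were at no more than 3.7 reads in a resting library and were not called with all 6 libraries. Ocstamp was called lower without resting replicate 2 and Dcstamp without resting replicate 3, both in the fit without the filter. This comparison and those of WT compartments with resting share the 3 resting libraries.

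Across the 4 groups, Csf1 was called by limma's F test (adjusted P = 0.119) with a fold of at least 5 between a pair of group means, 1 of the 4 genes against 5.6% of all genes. Tnfrsf11a had an adjusted P of 0.0177 but a smaller fold. Without the filter 5 of the 10 were called, against 7.08% of all genes (Acp5, Csf1, Dcstamp, Ocstamp and Tnfsf11). Of the 10, Tnfsf11 (0.0311) and Ocstamp (0.0351) had an adjusted P under 0.05 in limma's F test there, as did 907 of all 23070 genes. None of the 10 did without any resting library, hypertrophic replicate 2 or 3 or *aadd* replicate 2. In the filtered fit, leaving out proliferative replicate 2 or either of hypertrophic replicates 2 and 3 lost the call of Csf1. Without the filter its call was lost with any library left out but proliferative replicate 3 or hypertrophic replicate 1, and that of Acp5 without hypertrophic replicate 2 or 3.

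The pathway around the 10 genes was followed in 3 lists. Of 16 genes that carry out resorption, 10 passed the filter, 6 of these were called higher in WT hypertrophic than WT proliferative, and 0 lower, against 5.32% higher and 4.34% lower of all genes. The median log2 change of the 10 was 1.36, beside 0.04 over all genes. Atp6v0d2, a subunit of the proton pump that acidifies the resorption pit, was at 5.30, 150.7 and 125.9 NRPKM in hypertrophic replicates 1, 2 and 3 and at 1.10 to 1.22 in proliferative, a change of 5.22 ± 1.26 (adjusted P = 0.153 in limma). It reached 5 NRPKM in the 3 hypertrophic libraries alone, so it entered the filter only through the group where it was high. Mmp9, a gelatinase made by osteoclasts, was at 10.3, 422.2 and 377.9 NRPKM and at 1.69 to 8.10 in proliferative, a change of 4.62 ± 1.52 (adjusted P = 0.205 in limma). Outside the hypertrophic group Mmp9 reached 5 NRPKM in proliferative replicates 1 and 3 alone, so it too entered only with hypertrophic libraries counted. The count of 6 and the median of 1.36 include both genes. Both were above all proliferative libraries in replicate 1 also. The hypertrophic and proliferative groups did not overlap for 2642 of the 10936 genes past the filter. In the fit without the filter and without that library, 15 of 16 were called higher, against 8.96% of all genes, and 13 had an adjusted P under 0.05 in limma, against 1.91%. That library was left out after its values were seen.

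Of 21 genes of RANK signalling and osteoclast transcription, 9 passed the filter and 4 of these were called higher in hypertrophic than in proliferative (5.32% of all genes) and 0 lower (4.34%), with a median of 1.69. Tyrobp, the DAP12 adaptor of myeloid receptors, was at 6.81, 164.0 and 135.7 NRPKM in hypertrophic replicates 1, 2 and 3 against 1.52 to 11.5 in proliferative (3.84 ± 1.37, adjusted P = 0.224 in limma). Tyrobp, Spi1 and Fos each met the filter only with hypertrophic libraries counted, the group where they were high. The median of 1.69 includes all of them, and the count of 4 includes Tyrobp. Without hypertrophic replicate 1 and without the filter, 16 of 21 were called higher (8.96% of all genes), 10 with an adjusted P under 0.05 in limma (1.91%). That library was left out after its values were seen.

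Of 18 further signals and upstream receptors, 16 passed the filter, 3 were called higher in hypertrophic than in proliferative and 0 lower, beside the same 5.32% and 4.34% of all genes, with a median of 0.48. Cxcl12, a chemokine, was at 11.9, 23.8 and 19.96 NRPKM in hypertrophic replicates 1, 2 and 3 against 1.39 to 4.96 in proliferative (2.47 ± 0.53, adjusted P = 0.137 in limma). Ccl9, a chemokine that attracts myeloid cells, was at 8.40, 47.2 and 55.7 NRPKM against 5.63 to 8.34 (2.06 ± 0.72, adjusted P = 0.218 in limma). Cxcl12 in replicate 1 was thus well above the proliferative libraries, whereas Ccl9 there was level with the highest of them. Without hypertrophic replicate 1 and without the filter, 5 of 18 were called higher and 1 lower, against 8.96% and 9.79% of all genes. That library was left out after its values were seen.

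Between WT proliferative and WT resting, in the filtered fit, 0 of the 10 resorption genes, 2 of the 9 RANK signalling genes (both higher) and 5 of the 16 further signals (3 higher and 2 lower) were called, against 5.53% of all genes. Without the filter the resorption genes had 1 call (Car2, higher) and the RANK signalling genes 5, all higher, against 7.26% of all genes. Between *aadd* and WT resting, 0 of the 10 resorption genes, 1 of the 9 RANK signalling genes (higher) and 4 of the 16 further signals (3 higher and 1 lower) were called in the filtered fit, against 6.56% of all genes.

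Over the hypertrophic libraries, the summed levels of some lists of other cell types moved with the osteoclast genes. Those of cartilage matrix and of T and B cells went the other way. The summed level of Acp5, Dcstamp, Ocstamp, Calcr and Oscar was 4.79, 364.9 and 279.2 NRPKM in replicates 1, 2 and 3 and 2.17 to 4.92 in the other 9 libraries. The summed level of 10 endothelial genes was 26.7, 328.1 and 226.6 NRPKM against 6.94 to 43.5, and all 10 genes were above the other 10 libraries in both replicates 2 and 3. Among 23070 genes above 0 in any library, 11.6% had this pattern. The summed level of 10 macrophage genes was 27.5, 233.5 and 185.0 NRPKM against 18.2 to 49.2, but 3 of the 10 genes were above the other 10 libraries in both replicates 2 and 3. Most of that sum was Cd68, a lysosomal protein that osteoclasts also make, at 174.2 and 160.4 NRPKM. The others of the 3 were Lyz2, a lysozyme of myeloid cells, at 0, 37.1 and 10.5 NRPKM in hypertrophic replicates 1, 2 and 3, and Cd14 at 0, 1.44 and 2.24. Emr1 was at 0.472, 1.77 and 0.478 there, and C1qa was at no more than 0.313 NRPKM in any of the 12 libraries. The summed level of 10 osteoblast genes was 1629, 3370 and 4343 NRPKM against 128.1 to 1152. The summed level of 10 hypertrophic chondrocyte genes, which share Alpl, Ibsp, Sp7 and Spp1 with the osteoblast list, was 1808, 3567 and 3907 NRPKM against 66.7 to 956. Of the osteoblast genes 8 of 10, and of the hypertrophic chondrocyte genes 4 of 10, were above the other 10 libraries in both replicates 2 and 3. Col10a1 and Ihh, of the latter list, were lower in both than in replicate 1. The summed level of 10 cartilage matrix genes was 2998, 716 and 1049 NRPKM against 2486 to 5142. The 8 T and B cell genes summed to 28.0, 15.3 and 19.2 NRPKM against 14.4 to 29.5, and the 7 erythroid genes found of 10 summed to 35.8, 154.1 and 171.5 NRPKM against 25.3 to 77.3. Of the last 3 lists, 0 of 10 cartilage matrix, 1 of 8 T and B cell and 4 of 7 erythroid genes had the pattern above. The part of each cell type in the levels of the signals was not tested.

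**Figure D4:**
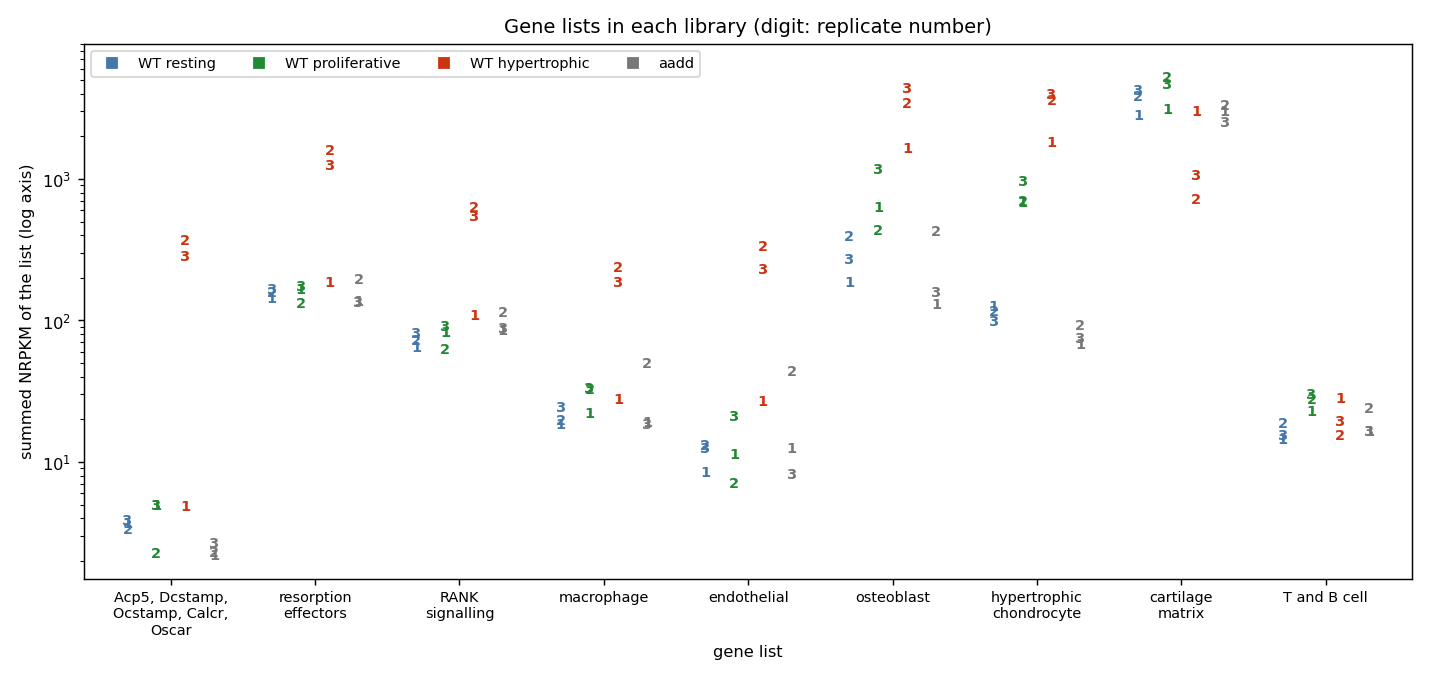
The x axis gives gene lists and the y axis, on a log scale, the summed NRPKM of the list's genes; each digit is a library, coloured by group, and shows its replicate number. Hypertrophic replicates 2 and 3 stand above the other 10 libraries for the 5 osteoclast genes (364.9 and 279.2 against at most 4.92) and below them for cartilage matrix (716 and 1049 against at least 2486).

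The 5 tested genes whose levels followed Tnfsf11 most closely over the 12 libraries, by Pearson's r of log2(NRPKM + 0.1), were Fam78b (r = 0.967), Wdfy2 (0.964), Sdc2 (0.960), Stk17b (0.957) and Cfl1 (0.956). Sdc2, a cell-surface proteoglycan, was at 25.2 to 31.6 NRPKM in resting, 37.0 to 55.8 in proliferative and 53.5, 136.3 and 136.8 in hypertrophic replicates 1, 2 and 3. Those most like Acp5 were Cd68 (r = 0.986), Ptpn1 (0.983), Plekhm1 (0.982), Mmp13 (0.978) and Rac2 (0.978). Plekhm1, a protein of lysosome transport needed for resorption, was at 13.3 NRPKM in hypertrophic replicate 1, 47.7 in replicate 2 and 43.2 in replicate 3. Rac2, a GTPase of blood-derived cells, was at 7.90, 58.5 and 49.7 NRPKM in the same libraries. For Acp5 these correlations rest on 2 libraries that differ from the other 10, and for Tnfsf11 they rest on low values and the added 0.1 where it was at 0.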

How the data were processed

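RNA-Seq was made from 20 ng of LCM RNA per library (NuGEN Ovation V2 amplification, Nextera libraries, Illumina HiSeq). The authors discarded reads of low quality, with several alignments or in duplicate, used the mm10 build (with TopHat, by the submitters' processing notes) and deposited RPKM values normalized further between libraries in GeneSpring. The normalization between libraries and the use of strand are not given in the sources used here. No counts are given, so depth was read from the most frequent value of single-exon receptor and keratin-associated genes, taken as 1 read, and reads per gene from its longest GENCODE transcript. Such limits cover counting error only.

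Tools were R 4.3.3 with limma 3.58.1, and Python 3.11.15 with matplotlib 3.10.9, scipy 1.17.1, pandas 2.3.3 and numpy 2.4.6. Tests used log2(NRPKM + 0.1). The filter and limits follow the study's methods. Of 36186 rows, 10936 had at least 5 NRPKM in at least 3 of 12 libraries. Each comparison used its 6 libraries with no covariate. The procedure was tested on simulated data. Replicates were independent sets of samples, but the labels do not tie them to animals, so P-values measure the spread between these libraries. Deviations of same-numbered libraries correlated with r of 0.281, 0.179 and 0.198 between proliferative and resting, so the numbers were taken to pair these libraries, from the data and not the labels, and the blocked fit stands next to those results where a call differs.

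The genes, lists and markers were chosen with earlier results of these data known. Of the lists, the 2 genes of each with the largest fold among those called are named, with the 5 genes most like Tnfsf11 and Acp5. A result that this rule names is not reported here. C1qa, Emr1, Cd68, Lyz2, Cd14, Car2, Spi1, Fos, Col10a1, Ihh and Mmp13 were named after their values were seen. Alternatives were a pseudocount of 1, no filter, the filter over the 6 libraries compared, median of ratios rescaling, quantile normalization, all 12 libraries in 1 fit, the replicate block, a variance trend and each library left out. Combinations of no filter with the others were added after seeing the data.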

Additional observations from a re-analysis of the deposited data

How the results depend on the processing

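Of the fold changes of the 10 genes in the 4 pairwise comparisons, 398 under an alternative kept direction and call, 55 lost the call, 19 gained it and 14 changed sign, none of the last being a called change. Genes called are counted here among the 4 past the filter and, separately, among all 10 without it; the cause of each change was not tested. Between proliferative and resting, 2 of 4 became 0 with a pseudocount of 1 and 1 with median of ratios rescaling, quantile normalization or all 12 libraries in 1 fit, and 3 of 10 became 0 with a pseudocount of 1. Between hypertrophic and proliferative, 2 of 4 became 1 with a pseudocount of 1, median of ratios rescaling or quantile normalization and 5 (of 10) with no filter on low values, and 5 of 10 became 3 with the replicate block. Between hypertrophic and resting, 1 of 4 became 2 with all 12 libraries in 1 fit, the replicate block or the variance trend and 4 (of 10) with no filter. Between *aadd* and resting, 1 of 4 became 0 with all 12 libraries in 1 fit, and 1 of 10 became 2 with the replicate block and 0 with all 12 libraries in 1 fit, while with a pseudocount of 1 the 1 called was Tnfrsf11b in place of Acp5. Over the 4 groups, 1 of 4 became 5 (of 10) with no filter. The block moved no other of these counts by over 1.5 times. Every library correlated best with its own number in the other group in hypertrophic against resting (r of same-numbered pairs 0.063 to 0.111), and 3 of 6 libraries did in hypertrophic against proliferative (-0.058 to 0.124) and in *aadd* against resting (-0.097 to 0.28), a hint from the data and not the design. Over all genes past the filter, those with adjusted P under 0.05 in limma went from 68 to 9 with the block (proliferative against resting), and from 0 to 705 with all 12 libraries in 1 fit and 1905 without hypertrophic replicate 1 (hypertrophic against proliferative).

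With each library left out, the counts past the filter ran from 0 to 2 (proliferative against resting), 0 to 2 (hypertrophic against proliferative), 1 to 2 (hypertrophic against resting), 0 to 1 (*aadd* against resting) and 0 to 1 (4 groups). Without the filter they ran from 1 to 3, 1 to 8, 3 to 8, 0 to 3 and 3 to 7. Changes of sign, in log2, came when a library was left out: the range was -0.416 to 0.552 for Tnfrsf11b in hypertrophic against proliferative, -0.346 to 0.267 for Nfatc1 in hypertrophic against resting and -0.102 to 0.355 for Csf1 in *aadd* against resting. It was -0.671 to 0.116 for Calcr and -0.128 to 2.16 for Oscar in proliferative against resting, and in *aadd* against resting -0.105 to 0.614 for Calcr and -0.312 to 1.46 for Oscar. Calcr was also at -0.226 there with quantile normalization.

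The difference in the log2 ratio of Tnfsf11 to Tnfrsf11b kept its sign throughout. With a pseudocount of 1 it was 1.47 between proliferative and resting, 2.06 between hypertrophic and proliferative, 3.53 between hypertrophic and resting and 0.95 between *aadd* and resting. Depth limits Tnfsf11, Dcstamp, Ocstamp, Calcr and Oscar, each under 10 reads outside hypertrophic replicates 2 and 3.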
